A study of Mus musculus with 25 samples.

Results

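The change of hippocampal gene expression between postnatal day 14 (P14) and postnatal day 24 (P24) was measured in mice of the [129S6/SvEvTac x C57BL/6]F1 strain (F1 below). It rests on 11 of the 25 RNA-seq libraries of the series, chosen by title: the F1 libraries of both genotypes at both ages, without those of mice that had seizures. At P24 there were 2 libraries of Scn1a+/- mice and 3 of wild-type mice, and at P14 there were 3 of each. Scn1a+/- mice carry 1 disrupted copy of Scn1a, the gene of the sodium channel Nav1.1, and are a model of Dravet syndrome, a childhood epilepsy. Every library was made from flash-frozen hippocampi pooled over 12 to 16 mice, so a library is an average over animals. The labels do not say whether pools of a group came from separate litters or days. A p-value here is therefore set against the variation among pools, which may be technical. Age and any difference in the handling of P14 and P24 tissue cannot be told apart. The 129S6/SvEvTac strain (129S6) was sampled at both ages too, in 11 libraries of the same 2 genotypes, and serves as a second strain in which the age change can be read.

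Between these ages a mouse begins to explore, stops nursing and is weaned. In the hippocampus, oligodendrocytes differentiate from precursor cells and wrap axons in myelin, a stacked membrane built from a few abundant proteins and much cholesterol. Granule neurons of the dentate gyrus are still being born and mature, inhibitory interneurons acquire fast firing and a net of matrix around them, and NMDA receptors exchange subunits. The brain of a suckling mouse burns ketone bodies made from milk fat, and after weaning it relies on glucose.

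The 11 libraries held 7436442 to 24011969 counted reads, with a median of 21816220 at P24 and 11563910.5 at P14, so the P24 libraries were the deeper ones. The first axis of a multidimensional scaling of the 22 libraries without seizures, with 24.9% of the variance, separated the ages in both strains, and the second, with 14%, separated the strains. Replicate pairs of F1 libraries differed by 2.39 to 5.05 (chi-square of counts per degree of freedom), except the 2 P24 Scn1a+/- libraries, which differed by 8.35. Markers of hippocampal neurons, glia, vessels, choroid plexus and meninges were detected in all 11 libraries. The thalamic genes Gbx2 and Pou4f1 had 0 counts in 4 and 2 of the 11, and the hemoglobin genes Hbb-bs and Hba-a1 had 0 counts in every library. Tcf7l2, another thalamic marker, and Alas2, another blood marker, had counts in all 11 libraries. The 0 counts therefore do not show that thalamic tissue or blood was absent. Scn1a (chromosome 2, 66270781 to 66440837, mm10) was read first as the targeted gene. It stood at 115 and 93.5 CPM (counts scaled to library size) in the P24 Scn1a+/- libraries and at 130, 125 and 129 in P24 wild type. At P14 it stood at 90.5, 92.6 and 90.7 in Scn1a+/- and at 106, 103 and 101 in wild type. Scn1a+/- libraries lay below wild type at each age, as their labels say.

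RNA levels changed widely between P14 and P24, and most changes were small. Of 15690 genes tested, 7040 (44.9%) were called by edgeR at an adjusted p under 0.05. Of these, 3471 (22.1% of genes tested) rose and 3569 (22.7%) fell. The median size of a called change was 0.31 on the log2 scale, and 474 called genes changed at least 2-fold, 225 upward and 249 downward. The median log2 fold change of all genes was 0.00, a value that the scaling sets near 0, and with upper-quartile factors 3594 genes rose and 3434 fell. For 3970 genes (25.3%) the 5 P24 libraries and the 6 P14 libraries did not overlap in CPM. The 15 largest rises and 15 largest falls were named only from such genes. For them (Hapln2, Sspo and Aplnr, for example) the lack of overlap was a condition of the choice and is no separate support. All counts of gene lists below are to be read against these shares. A list rises or falls in whole tissue when its cells become more or fewer or when each cell holds more or less of the RNA, and these cannot be told apart here.

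**Figure D1:**
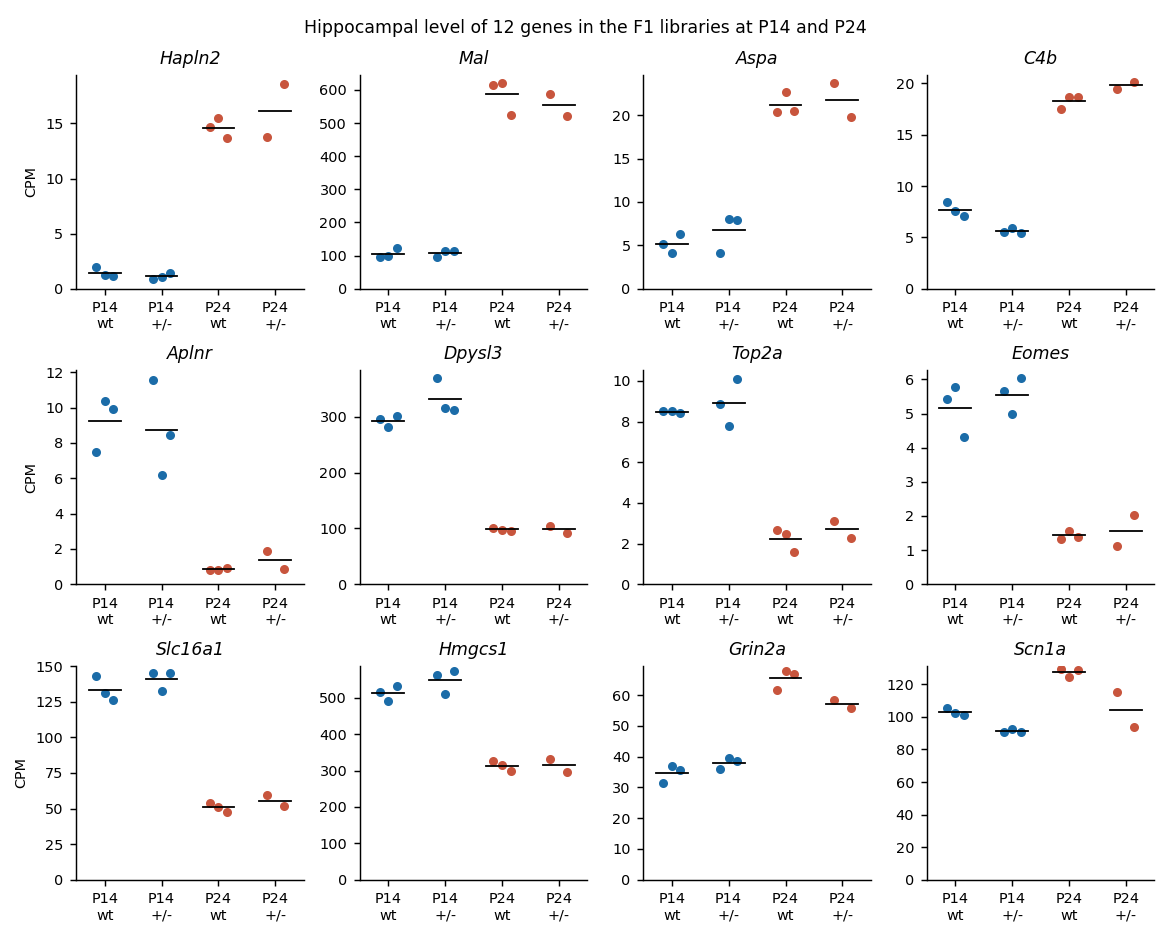
Levels in CPM (linear axis from 0) of 12 genes in the F1 libraries. Each point is a library (P14 in blue, P24 in red; wt, wild type; +/-, Scn1a+/-) and each line is a group mean. Ages separate without overlap in all panels except that of Scn1a, where the P24 Scn1a+/- library at 93.5 lies among the P14 libraries.

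Myelin genes rose more than any other group examined. Of 30 tested genes of myelin and mature oligodendrocytes, 28 rose and 1 fell, with a median log2 fold change of 1.20, and 19 rose at least 2-fold. Hapln2, a link protein of the matrix at nodes of Ranvier (chromosome 3, 88020558 to 88027511, mm10), had the largest rise of all genes named. It stood at 13.8 and 18.6 CPM in the P24 Scn1a+/- libraries and at 14.7, 15.5 and 13.7 in P24 wild type, against 0.885 to 1.92 (median 1.17) at P14. No library of either age came near the other group, and the rise was 12.3-fold (log2 3.62 ± 0.15 SE, edgeR adjusted p = 3.84e-25). Mal, a proteolipid of compact myelin (chromosome 2, 127633226 to 127656695), stood at 588 and 521 CPM in P24 Scn1a+/- and 616, 620 and 525 in P24 wild type, against 94.0 to 122 (median 106) at P14. Its rise of 5.38-fold (log2 2.43 ± 0.06) had the smallest adjusted p of all genes (edgeR, 1.9e-34). Mobp, another structural myelin protein, stood at 1173 and 1284 CPM in P24 Scn1a+/- and 1085, 1282 and 1115 in P24 wild type, against 372 to 497 (median 462) at P14, again without overlap. Mbp, myelin basic protein, rose by 1.01 ± 0.06 on the log2 scale.

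Genes that act late in the oligodendrocyte lineage stood together in this rise. Aspa, which breaks down N-acetylaspartate in oligodendrocytes, stood at 23.7 and 19.9 CPM in P24 Scn1a+/- and 20.4, 22.6 and 20.5 in P24 wild type, against 4.12 to 8.06 (median 5.73) at P14. Gjb1, the gap junction protein connexin 32, rose by 1.86 ± 0.14 on the log2 scale, and Opalin, a membrane protein of mature oligodendrocytes, by 1.84. Ppp1r14a, a phosphatase inhibitor on the same list, rose by 1.97 ± 0.11, Ermn, a cytoskeletal protein of late myelination, by 1.65 ± 0.06, and Ndrg1 by 1.49 ± 0.06. Myrf, the transcription factor that switches on myelin genes, rose by 0.73. Sox10, a factor present through the whole lineage, was not called at 0.03. The list member that fell was Enpp6 (-0.47), which marks newly forming oligodendrocytes. Summed over the list, the level was 6890 to 9442 CPM at P14 and 16260 to 18680 at P24.

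Genes of oligodendrocyte precursor cells went the other way. Of 18 tested, 17 fell and 1 rose, with a median of -0.39. The member that rose was Tnr (0.15), a matrix glycoprotein. Gpr17, a receptor of cells about to differentiate, stood at 150 and 172 CPM in P24 Scn1a+/- and 155, 168 and 154 in P24 wild type, against 267 to 313 (median 284) at P14. All P24 libraries lay below all P14 libraries, and the fall was 1.79-fold (log2 -0.84 ± 0.04, edgeR adjusted p = 5.89e-22). Pdgfra, the growth factor receptor that defines precursors, fell by 0.47 ± 0.04 on the log2 scale and Ptprz1, a receptor phosphatase, by 0.50 ± 0.04. The summed level of the list was 2217 to 2365 CPM at P14 and 1680 to 1788 at P24.

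Genes of cell division fell. Of 36 tested mitotic and DNA replication genes, 26 fell and none rose (22.1% of all genes tested rose), with a median of -0.71, and 16 fell at least 2-fold. Top2a, the topoisomerase that untangles chromosomes (chromosome 11, 98992947 to 99024199), stood at 3.12 and 2.29 CPM in P24 Scn1a+/- and 2.67, 2.45 and 1.57 in P24 wild type, against 7.79 to 10.1 (median 8.51) at P14. Mki67, the proliferation marker Ki-67 (chromosome 7, 135689784 to 135716450), stood at 6.75 and 7.32 CPM in P24 Scn1a+/- and 7.43, 6.51 and 6.00 in P24 wild type, against 15.4 to 19.3 (median 16.2) at P14. Neither gene overlapped between ages, and the falls were 3.58-fold for Top2a and 2.46-fold for Mki67 (edgeR adjusted p = 4.18e-14 and 2.7e-14). The lowest fold changes of the list were those of the mitotic kinase Aurkb, which fell by 2.49 on the log2 scale, the cyclin Ccnb1, which fell by 2.20, and the kinase Cdk1, which fell by 1.94. Among genes that load or copy DNA, Mcm2 fell by 0.68, Mcm5 by 0.64 and Rrm1 by 0.26, and Ccnd2, a cyclin of neural progenitors, fell by 0.43 ± 0.04. The mitotic kinases Plk1 (-0.16 ± 0.20) and Bub1b (-0.23 ± 0.17) and the replication genes Pcna (0.06) and Mcm4 (-0.16) were not called.

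The promoters of mitotic genes are known to carry a short element, TTTGAA, and a CCAAT box, through which their activity is tied to the cell cycle. Promoter sequences from RefSeq (GRCm38.p6, the assembly of mm10), 250 bases before to 50 after each gene's start, were found for 29 of the 36 genes and for 11768 of all genes tested. TTTGAA on either strand was present in 13 of the 29 (44.8%) and in 11.7% of all 11768 promoters. CCAAT was present in 24 of 29 (82.8%) and in 38.08% of all. Among the 22 called members with a promoter, 10 held TTTGAA and 19 held CCAAT. The stretches before the starts of Mki67 (chr7:135716380-135716629, minus strand) and Top2a (chr11:99024190-99024439, minus strand) are shown. Among called members with TTTGAA, these had the smallest p for the age change. Both carry the element in 2 places, and capitals mark TTTGAA or its reverse complement.
Mki67: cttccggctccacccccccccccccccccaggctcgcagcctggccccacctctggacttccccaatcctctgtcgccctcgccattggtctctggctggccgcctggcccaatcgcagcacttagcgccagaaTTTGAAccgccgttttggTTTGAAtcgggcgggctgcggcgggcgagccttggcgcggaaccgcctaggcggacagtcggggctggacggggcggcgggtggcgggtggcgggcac
Top2a: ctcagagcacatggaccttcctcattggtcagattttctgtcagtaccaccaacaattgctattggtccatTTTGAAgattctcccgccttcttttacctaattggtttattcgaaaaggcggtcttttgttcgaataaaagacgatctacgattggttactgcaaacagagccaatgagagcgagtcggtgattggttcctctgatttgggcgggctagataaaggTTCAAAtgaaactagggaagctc
In Mki67 the matches begin 116 and 98 bases before the start, and in Top2a 179 and 23 bases before it. A match of letters is a description of the sequence and shows no binding.

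Genes of newborn and growing neurons fell as a block. Of 32 tested, 29 fell and none rose, with a median of -0.92 and 14 falls of at least 2-fold. Dpysl3, a collapsin response mediator protein of growing axons, stood at 104 and 91.7 CPM in P24 Scn1a+/- and 101, 97.8 and 96.1 in P24 wild type, against 281 to 370 (median 307) at P14. The P24 values were tightly grouped and far below every P14 value, a 3.19-fold fall (log2 -1.67 ± 0.05, edgeR adjusted p = 1.6e-32). Dcx, doublecortin, the microtubule protein of migrating neurons, stood at 74.7 and 78.8 CPM in P24 Scn1a+/- and 68.0, 63.9 and 75.7 in P24 wild type, against 169 to 202 (median 177) at P14. Eomes, the transcription factor of intermediate progenitors (chromosome 9, 118478186 to 118486132), stood at 1.13 and 2.01 CPM in P24 Scn1a+/- and 1.33, 1.56 and 1.38 in P24 wild type, against 4.31 to 6.03 (median 5.54) at P14. Both fell without overlap, Dcx 2.51-fold and Eomes 3.50-fold. Igfbpl1, a marker of young granule neurons, fell by 1.68 ± 0.07 on the log2 scale, Dpysl5 by 1.51 ± 0.05, Neurod4 by 2.01 and the tubulin Tuba1a by 1.04 ± 0.04. Gap43, a growth cone protein, fell by 1.05. The 3 members not called were Neurod2 (0.05), Prox1 (-0.11) and Dbn1 (0.03).

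Prox1 marks dentate granule cells at all stages, and markers of mature granule cells rose. Of 19 dentate granule cell markers tested, 16 rose and none fell, with a median of 0.33. Dsp, the desmosome protein desmoplakin, stood at 70.9 and 77.7 CPM in P24 Scn1a+/- and 86.1, 79.8 and 88.9 in P24 wild type, against 40.3 to 53.0 (median 50.2) at P14. The ages did not overlap, and the rise was 1.62-fold (log2 0.70 ± 0.05, edgeR adjusted p = 2.76e-16). Plekha2 rose by 0.80 ± 0.06, Glis3, a zinc finger factor, by 0.88 ± 0.09, C1ql2, a synaptic organizer of mossy fibers, by 0.69 ± 0.07 and Calb1, calbindin, by 0.12. Pyramidal cell lists were mixed: 7 of 15 CA1 markers rose and 5 fell (median 0.09), and for CA2 and CA3 there were 4 rises and 9 falls among 20 markers (median -0.11). Nov, a secreted matricellular protein among the CA1 markers, fell by 0.82 ± 0.06, and Rgs14, a signalling regulator known from CA2 neurons, rose by 0.51 ± 0.05. Without P24 Scn1a+/- replicate 2, P24 wild-type replicate 3 or P14 Scn1a+/- replicate 2, 3 CA1 markers fell in place of 5.

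Imprinted growth genes, whose expression comes from 1 parental copy, moved both ways. Of 25 tested, 8 (32%) fell and 5 (20%) rose, with a median of -0.14, against 22.7% and 22.1% of all genes tested. The rises were those of Dlk1, a growth regulator (1.42 ± 0.22), Igf2r (0.28), Sgce (0.23), Peg13 (0.20) and Peg3 (0.20). H19, a noncoding RNA of the Igf2 locus (chromosome 7, 142575530 to 142578146), stood at 1.04 and 0.839 CPM in P24 Scn1a+/- and 0.711, 0.803 and 0.784 in P24 wild type, against 3.48 to 5.67 (median 3.67) at P14. It fell 4.82-fold without overlap (edgeR adjusted p = 2.86e-12). Its neighbour Igf2, a fetal growth factor, fell by 0.61 ± 0.06 on the log2 scale, and Nnat, neuronatin, by 0.93 ± 0.04. Mkrn3, an imprinted ubiquitin ligase known as a brake on puberty, is not in that list and is named for the size of its change. It fell 3.98-fold, from 14.8 to 19.6 CPM at P14 to 3.20 to 5.54 at P24. Of 14 fetal RNA-binding and early growth genes, 7 fell and none rose (median -0.37), among them Dnmt3a, a DNA methyltransferase (-0.87 ± 0.04), and the transcription factors Mycn (-0.81 ± 0.09) and Myc (-0.64 ± 0.11).

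Guidance and adhesion genes moved in both directions. Of 44 axon growth and guidance genes, 20 fell and 10 rose (median -0.11). The secreted semaphorin Sema3c fell by 1.01 ± 0.05, the plexin Plxnd1 by 0.76 ± 0.06 and Ephb2 by 0.70 ± 0.07, while the repellent Slit1 rose by 0.89 ± 0.04. Slit1 stood at 192 and 201 CPM in P24 Scn1a+/- and 246, 223 and 237 in P24 wild type, against 106 to 128 (median 115) at P14, so its ages did not overlap. Of 28 protocadherins and cadherins, 10 fell and 5 rose (median -0.11). Within the gamma cluster Pcdhgc3 fell by 0.41 ± 0.05 and Pcdhgc5 rose by 0.45 ± 0.07, although these genes share their last exons and counting could have split their reads. Of 41 Wnt, BMP and Notch signalling genes, 16 fell and 11 rose (median -0.12). Among the falls were those of the BMP targets Id1 (-0.53 ± 0.09), Id2 (-0.35 ± 0.04) and Id3 (-0.50 ± 0.06). Members of the list ran from -1.30 to 1.01, and 39% fell and 26.8% rose. The 11 rises became 7 without P24 Scn1a+/- replicate 1 or 2, P24 wild-type replicate 1, or P14 Scn1a+/- replicate 1 or 3.

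Outside these groups, the largest rises included secreted and metabolic genes. Sspo, SCO-spondin, a giant secreted glycoprotein, stood at 14.6 and 19.9 CPM in P24 Scn1a+/- and 17.4, 19.6 and 19.6 in P24 wild type, against 1.06 to 3.63 (median 2.35) at P14, an 8.01-fold rise without overlap. Etnppl, an astrocyte enzyme of phosphoethanolamine breakdown, rose 5.46-fold and Adssl1, an enzyme of purine synthesis, 3.99-fold. Plk5, a brain polo-like kinase without a role in division, rose 4.17-fold, while its mitotic relative Plk1 was not called (-0.16). Tnfaip6, a hyaluronan-binding protein, rose 4.88-fold, from 0.464 to 1.33 CPM at P14 to 3.86 to 5.79 at P24. Ntn5, a netrin, rose 4.21-fold, Sec14l5 4.18-fold, Gpnmb, a glycoprotein of phagocytes, 4.00-fold, Rtp1, a chaperone of odorant receptors, 3.88-fold and Itgb4, an integrin, 3.75-fold.

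Among the genes named by the rule, the largest fall was in a receptor of growing vessels. Aplnr, the apelin receptor (chromosome 2, 85136360 to 85139923), stood at 1.91 and 0.839 CPM in P24 Scn1a+/- and 0.800, 0.803 and 0.923 in P24 wild type, against 6.18 to 11.6 (median 9.18) at P14. It fell 8.74-fold without overlap (log2 -3.13 ± 0.18, edgeR adjusted p = 9.2e-20). Bcl6b, a transcriptional repressor of endothelium, fell 3.14-fold. Hcrtr1, the orexin receptor 1, fell 3.67-fold, Prph, the filament protein peripherin, 3.48-fold, Ppic, a cyclophilin, 3.59-fold and Dgkk, a diacylglycerol kinase, 3.25-fold. Nrep, a protein of regenerating neurons, fell 3.22-fold from a high level, 418 to 468 CPM at P14 to 115 to 153 at P24. Aspm, a spindle protein of neural progenitors, fell 3.26-fold and Ckap2, another spindle protein, 3.21-fold.

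Sodium channel subunits changed by small amounts. Of 12 tested, 5 rose and 1 fell (median 0.11, range -0.11 to 0.44). Scn1a rose 1.19-fold (log2 0.25 ± 0.04, edgeR adjusted p = 8.14e-06), but its ages overlapped through P24 Scn1a+/- replicate 2. Scn4b, which supports resurgent current, stood at 17.0 and 15.7 CPM in P24 Scn1a+/- and 22.4, 22.4 and 18.4 in P24 wild type, against 12.3 to 14.9 (median 13.8) at P14. It rose by 0.44 ± 0.08 without overlap, and Scn8a, the channel Nav1.6 of axon initial segments, by 0.20 ± 0.04. Scn3b fell by 0.11, and that call was lost without P24 Scn1a+/- replicate 2, P14 Scn1a+/- replicate 1 or 3, or P14 wild-type replicate 3, while without P24 Scn1a+/- replicate 1 there were 2 falls. Scn2a1 (-0.06) and Scn3a (0.05) were not called.

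Of 60 potassium and HCN channel genes, 25 rose and 10 fell (median 0.10, range -0.88 to 0.64). Among the changes with the smallest p were rises of Kcnab2, a Kv1 auxiliary subunit (0.64 ± 0.04), Kcnj6, the inward rectifier GIRK2 (0.56 ± 0.05), and Kcna1, the axonal channel Kv1.1 (0.53 ± 0.04). Kcna1 stood at 241 and 221 CPM in P24 Scn1a+/- and 255, 244 and 244 in P24 wild type, against 159 to 173 (median 165) at P14, without overlap. Summed over the list, potassium channel genes stood at 4713 to 4942 CPM at P14 and 5494 to 5884 at P24. Of 22 calcium channel genes 9 rose and 5 fell (median 0.04). Cacna2d4 rose 3.55-fold from a low level, 0.834 to 2.23 CPM at P14 to 3.78 to 5.20 at P24. Cacna1e, the R-type channel, rose by 0.37 ± 0.04, and Cacna1g, a T-type channel, fell by 0.45 ± 0.05.

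NMDA receptor subunits moved in opposite directions. Of 7 tested, 3 rose and 3 fell (median 0.15). Grin2a, the subunit that joins receptors as synapses mature, stood at 58.5 and 55.6 CPM in P24 Scn1a+/- and 61.7, 67.8 and 66.8 in P24 wild type, against 31.4 to 39.4 (median 36.5) at P14. It rose 1.68-fold without overlap (log2 0.75 ± 0.06, edgeR adjusted p = 1.5e-15). Grin3a, a subunit of juvenile receptors, stood at 54.5 and 48.4 CPM in P24 Scn1a+/- and 50.8, 54.2 and 48.8 in P24 wild type, against 79.6 to 94.2 (median 83.6) at P14, a 1.65-fold fall without overlap. Grin2d, an early subunit that interneurons keep, fell by 0.59 ± 0.07. Grin2b, which is abundant early in life, rose by 0.22, and the obligatory subunit Grin1 rose by 0.26 ± 0.05 with overlapping ages.

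Genes of other transmitter receptors moved both ways. Of 19 AMPA and kainate receptor genes 6 rose and 6 fell (median -0.03), with Gria3 at 0.35 ± 0.04, Gria2 at 0.24 ± 0.04 and the kainate partner Neto2 at -0.50 ± 0.05. Of 7 metabotropic glutamate receptors 2 rose and 3 fell (median -0.08), with Grm3 at -0.29 ± 0.06; 1 rise was left without P24 Scn1a+/- replicate 2, P24 wild-type replicate 1 or 3, P14 Scn1a+/- replicate 1 or P14 wild-type replicate 2. Of 19 GABA-A and glycine receptor subunits 4 rose and 6 fell (median -0.12). Glra2, the juvenile glycine receptor subunit, fell 2.03-fold, from 23.2 to 34.3 CPM at P14 to 12.3 to 14.1 at P24, and Gabra5, the extrasynaptic subunit of CA1, fell by 0.24 ± 0.04. Without P24 Scn1a+/- replicate 2, 3 of these subunits fell in place of 6. Of 22 genes of GABA handling and chloride transport, 7 rose and 6 fell (median -0.10). Slc12a2, the chloride importer NKCC1, rose by 0.44 ± 0.04, the chloride channel Clcn2 by 0.47 ± 0.04 and the kinase Wnk1 by 0.39 ± 0.04. Aldh5a1, an enzyme of GABA breakdown, fell by 0.30 ± 0.04.

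Interneuron markers moved both ways. Of 37 tested, 8 rose and 17 fell (median -0.13). Pvalb, parvalbumin, of fast-spiking cells, stood at 41.6 and 42.9 CPM in P24 Scn1a+/- and 35.2, 41.9 and 39.2 in P24 wild type, against 22.7 to 26.0 (median 25.3) at P14, a 1.63-fold rise without overlap (edgeR adjusted p = 1.66e-13). Nos1, neuronal nitric oxide synthase, rose by 0.65 ± 0.05. Calb2, calretinin, which young granule neurons also make, stood at 41.0 and 39.6 CPM in P24 Scn1a+/- and 41.9, 34.5 and 39.4 in P24 wild type, against 62.1 to 78.2 (median 71.9) at P14, a 1.77-fold fall. Reln, reelin, fell by 0.62 ± 0.05, Sst, somatostatin, by 0.31 and Cort, cortistatin, by 1.39 ± 0.17, while Vip (0.13) and Npy (-0.02) were not called.

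Matrix genes around neurons fell more often than they rose. Of 24 genes of perineuronal nets and lecticans, 12 fell and 6 rose (median -0.28). The largest of these rises was that of Hapln2, which is also counted among the myelin genes above. Among the link proteins that tie lecticans to hyaluronan, Hapln1 fell 2.14-fold, from 142 to 170 CPM at P14 to 65.4 to 81.8 at P24. Hapln4, the link protein of perisynaptic matrix, stood at 77.1 and 52.7 CPM in P24 Scn1a+/- and 90.6, 75.5 and 70.5 in P24 wild type, against 20.9 to 29.0 (median 28.4) at P14, a 2.65-fold rise. All P24 libraries exceeded P14, and P24 Scn1a+/- replicate 2 was the lowest of them. Ncan, neurocan, the juvenile lectican, fell 1.88-fold without overlap.

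Synaptic genes were split in number. Of 44 presynaptic vesicle and release genes 12 rose and 15 fell (median -0.05), and of 38 postsynaptic density and plasticity genes 15 rose and 14 fell (median 0.01). The SNARE protein Vamp1 rose by 0.54 ± 0.05 and Synpo, synaptopodin, by 0.39 ± 0.04. Syn3, the synapsin of young neurons, fell by 0.59 ± 0.05 and Stx1a, syntaxin 1A, by 0.56 ± 0.04. Cntnap1, the paranodal protein Caspr, which was on the postsynaptic list but is known from myelinated axons, rose by 0.57 ± 0.04. The scaffold Dlg2 fell by 0.38 ± 0.04, and the regulators of dendritic spines Baiap2 (0.35 ± 0.04) and Kalrn (0.30 ± 0.04) rose. With all 25 libraries in the fit, 9 presynaptic and 8 postsynaptic genes fell in place of 15 and 14.

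Several vascular genes fell. Of 30 endothelial and pericyte markers, 15 fell and 6 rose (median -0.18). Cldn5, the tight junction protein claudin 5, stood at 33.2 and 37.9 CPM in P24 Scn1a+/- and 33.4, 30.8 and 35.0 in P24 wild type, against 57.6 to 68.7 (median 66.4) at P14, a 1.89-fold fall without overlap. Kdr, the VEGF receptor 2, fell 2.34-fold and Rgs5, a pericyte signalling regulator, 2.06-fold. Of 30 collagen and leptomeningeal genes 10 fell and 6 rose (median -0.06), with Col3a1 falling by 1.07 ± 0.11 and Col4a2, of basement membranes, rising by 0.34 ± 0.05.

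Astrocyte markers moved both ways, and microglia markers were called about as often as all genes tested. Of 41 astrocyte markers 13 rose and 15 fell (median 0.00). Aqp4, the water channel of astrocyte endfeet, stood at 224 and 227 CPM in P24 Scn1a+/- and 189, 194 and 199 in P24 wild type, against 323 to 364 (median 340) at P14, a 1.63-fold fall without overlap. The glutamate transporter Slc1a3 fell by 0.42 ± 0.04, and Clu, clusterin (0.44 ± 0.04), and Mt1, a metallothionein (0.66 ± 0.04), rose. Of 30 microglia markers 8 (26.7%) rose and 7 (23.3%) fell (median -0.03), against 22.1% and 22.7% of all genes tested. The purine receptors of resting microglia fell, P2ry12 by 0.66 ± 0.05 and P2ry13 by 0.61 ± 0.10, and the protease Ctss rose by 0.61 ± 0.06. P2ry12 stood at 59.8 and 60.4 CPM in P24 Scn1a+/- and 49.0, 53.0 and 49.7 in P24 wild type, against 83.4 to 90.1 (median 87.0) at P14. The 8 microglial rises became 4 without P24 Scn1a+/- replicate 2 and 5 without P14 wild-type replicate 3.

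A part of the immune genes examined rose. Of 29 genes of MHC class I, complement and the interferon response, 12 rose and none fell (median 0.41). C4b, complement component 4 (chromosome 17, 34728139 to 34743902), stood at 19.5 and 20.1 CPM in P24 Scn1a+/- and 17.5, 18.7 and 18.6 in P24 wild type, against 5.38 to 8.42 (median 6.48) at P14. It rose 2.92-fold without overlap (log2 1.54 ± 0.09, edgeR adjusted p = 2.08e-19). The interferon-induced gene Ifi27 rose by 0.82 ± 0.07 and H2-K1, an MHC class I heavy chain, by 0.47 ± 0.09, a gene of a family of near-identical copies whose reads counting could split. Without P24 Scn1a+/- replicate 2 the list had 7 rises and 1 fall.

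Genes of cholesterol synthesis fell together. Of 28 tested, 21 fell and 2 rose (median -0.33). Hmgcs1, the enzyme that commits acetyl units to the pathway (chromosome 13, 119690351 to 119708260), stood at 332 and 296 CPM in P24 Scn1a+/- and 326, 315 and 298 in P24 wild type, against 491 to 574 (median 524) at P14. It fell 1.70-fold without overlap (log2 -0.76 ± 0.04, edgeR adjusted p = 2.44e-21). Sqle, squalene epoxidase, fell by 0.60 ± 0.05 and Tm7sf2, a sterol reductase, by 0.71 ± 0.07. The transcription factor SREBP2 is known to drive this pathway through a sterol element. The letters TCACNCCAC, which match that element, were found on either strand in 1 of 18 members with a promoter (5.6%) and in 1.1% of all promoters, and CCAAT in 16 of 18 (88.9%, against 38.08% of all). The member was Hmgcs1, and the bases before its start (chr13:119690101-119690350, GRCm38.p6, plus strand) are shown with the match in capitals.
Hmgcs1: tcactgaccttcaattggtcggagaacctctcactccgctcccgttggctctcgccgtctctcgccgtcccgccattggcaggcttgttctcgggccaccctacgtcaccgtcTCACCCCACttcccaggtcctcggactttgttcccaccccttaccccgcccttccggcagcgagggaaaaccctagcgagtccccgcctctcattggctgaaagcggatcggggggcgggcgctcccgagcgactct
The match begins 137 bases before the start.

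Of 30 tested ketone, fatty acid and milk-diet genes, 10 (33.3%) fell and 4 (13.3%) rose, with a median of -0.10, against 22.7% and 22.1% of all genes tested. Falls included ketone-use genes, and the rises were those of Pdk2 (0.36), Ppara (0.35), Cpt1c (0.26) and Ucp2 (0.17). Slc16a1, the monocarboxylate transporter MCT1 that carries ketones and lactate across vessel walls (chromosome 3, 104638664 to 104658462), stood at 59.7 and 51.5 CPM in P24 Scn1a+/- and 54.1, 50.8 and 47.9 in P24 wild type, against 126 to 146 (median 138) at P14. It fell 2.59-fold without overlap (log2 -1.37 ± 0.05, edgeR adjusted p = 2.41e-28). Bdh1, which oxidizes hydroxybutyrate, fell 1.86-fold, Oxct1, which activates acetoacetate, 1.68-fold, and Acat1, which splits acetoacetyl-CoA, 1.52-fold. Oxct1 stood at 396 and 333 CPM in P24 Scn1a+/- and 358, 354 and 336 in P24 wild type, against 570 to 637 (median 595) at P14.

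Glucose and respiration genes followed different courses. Of 23 glycolysis enzymes 9 rose and 7 fell (median 0.02). Ldha, lactate dehydrogenase A, fell 1.53-fold, from 156 to 182 CPM at P14 to 95.6 to 129 at P24, and the phosphofructokinase Pfkp fell by 0.43 ± 0.04. Pygm, glycogen phosphorylase, rose by 0.70 ± 0.08. Without P24 wild-type replicate 3, 4 of these enzymes fell in place of 7. Of 74 oxidative phosphorylation genes, 53 fell and none rose (median -0.22), by small amounts that ran from -0.48 to 0.08. Uqcrq, of complex III, had the smallest adjusted p among them, at 128 and 152 CPM in P24 Scn1a+/- and 121, 128 and 122 in P24 wild type, against 170 to 199 (median 183) at P14 (log2 -0.48 ± 0.04). Of 75 cytosolic ribosomal protein genes 21 fell and 2 rose (median -0.08); the median was -0.25 in wild type and 0.03 in Scn1a+/-, and many of these genes have processed copies that can share reads. Without P24 Scn1a+/- replicate 1 the ribosomal rises were 5, and without replicate 2 they were 0.

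Both lists hold genes of short exonic length, and calls moved with that length. Exonic lengths from GENCODE vM39 were found for 97.3% of genes tested. Genes were split into 10 equal bins by length. In the bin of the shortest genes 11.9% rose and 22.4% fell (median -0.04), and in that of the longest 37.2% rose and 18.4% fell (median 0.07). The median exonic length was 3974 bases for 60 oxidative phosphorylation genes with a length and 2872 for the 75 ribosomal genes. The bin of genes of 3455 to 4371 bases had a median of -0.04, against -0.22 for oxidative phosphorylation genes. The part of length in these results was not tested.

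**Figure D2:**
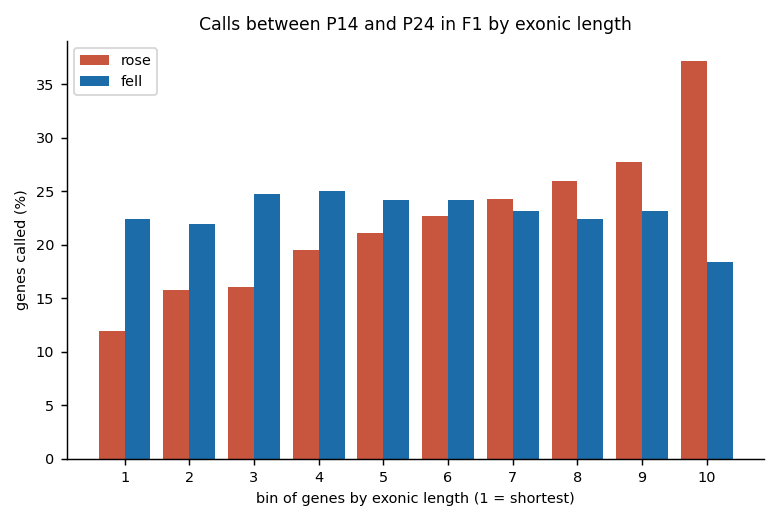
Share of genes called (bars, in %, from 0) that rose (red) or fell (blue) between P14 and P24 in F1, in 10 equal bins of exonic length. The share that rose goes from 11.9% in the shortest bin to 37.2% in the longest, and the share that fell lies between 18.4% and 25.0%.

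Clock and stress hormone genes rose. Of 19 circadian clock genes, 12 rose and none fell (median 0.35). Per3, a period gene, stood at 88.2 and 95.9 CPM in P24 Scn1a+/- and 89.5, 101 and 102 in P24 wild type, against 52.7 to 62.7 (median 56.6) at P14, a 1.67-fold rise without overlap (edgeR adjusted p = 4.43e-17). The clock output factors Dbp (0.70 ± 0.06), Tef (0.42 ± 0.04) and Hlf (0.44) rose with it, as did the repressor Bhlhe41 (0.82 ± 0.06), while Clock (0.02), Arntl (-0.09) and Cry1 (-0.04) were not called. The hour at which mice of each age were killed is not given in the sources used here, and its part in these values was not tested. Clock proteins bind the E-box CACGTG, which was found in the promoters of 5 of 17 members (29.4%) and in 9.75% of all, and in 4 of the 10 called ones with a promoter. The bases before the start of Tef (chr15:81802423-81802672, GRCm38.p6, plus strand) are shown with the E-box in capitals, since its P24 libraries, at 496 to 531 CPM, stood clear of P14, at 368 to 398.
Tef: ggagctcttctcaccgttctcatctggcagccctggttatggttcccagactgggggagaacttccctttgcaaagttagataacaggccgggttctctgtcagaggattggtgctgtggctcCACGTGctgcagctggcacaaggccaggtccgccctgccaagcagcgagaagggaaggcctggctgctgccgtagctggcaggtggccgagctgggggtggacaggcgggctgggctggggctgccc
The E-box begins 127 bases before the start. Of 23 genes of the glucocorticoid axis 14 rose and 2 fell (median 0.33). Sgk1, a kinase induced by the hormone, stood at 113 and 81.5 CPM in P24 Scn1a+/- and 114, 122 and 108 in P24 wild type, against 54.8 to 66.8 (median 59.6) at P14, a 1.75-fold rise without overlap, and Cdkn1a, a cell cycle inhibitor on that list, fell 1.92-fold.

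Of 22 thyroid hormone genes, 10 fell and 3 rose (median -0.15). Dio2, which makes active hormone in glia, fell 1.60-fold, from 231 to 247 CPM at P14 to 133 to 160 at P24. The hormone targets Hr (-0.83 ± 0.07) and Crym, a hormone-binding protein (-0.65 ± 0.05), fell and Stac2 rose by 0.72 ± 0.05. Of 25 neuropeptide precursors 12 fell and 2 rose (median -0.33). Nts, neurotensin, fell 2.25-fold and Adcyap1, PACAP, 2.31-fold, from 10.8 to 14.0 CPM at P14 to 4.98 to 5.69 at P24, while Penk, proenkephalin, rose 1.78-fold. Of 44 activity-induced early genes 11 (25%) rose and 10 (22.7%) fell (median -0.05), near the 22.1% and 22.7% of all genes tested. Ptgs2, cyclooxygenase 2, rose by 0.80 ± 0.10, with P24 Scn1a+/- replicate 1 at 41.0 CPM and the other P24 libraries at 21.3 to 25.5, against 13.9 to 16.7 at P14. Without that library 7 of the early genes rose in place of 11. Arc, a synaptic plasticity protein, rose by 0.43 ± 0.06.

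Markers of tissue beside the hippocampus were examined as a measure of dissection. Of 21 choroid plexus and ependymal markers 6 rose and 5 fell (median 0.24), with a summed level of 676 to 1069 CPM at P14 and 759 to 1132 at P24. Kl, klotho, rose 1.96-fold and Prlr, the prolactin receptor, 2.12-fold, while Ttr, transthyretin, fell by 0.25. Without P14 Scn1a+/- replicate 1, 3 choroid plexus markers fell in place of 5. Thalamic markers (5 rose and 5 fell of 19, median -0.11) stood at 604 to 629 CPM in sum at P14 and 520 to 569 at P24, with Slc17a6, the transporter VGLUT2, falling by 0.69 ± 0.08. Striatal markers (4 and 4 of 16, median 0.02) stood at 268 to 290 and 286 to 321, and neocortical markers (3 and 7 of 21, median -0.04) at 1411 to 1508 and 1260 to 1411. The shares called were 26.3% each way for thalamic and 25% each way for striatal markers, near the 22.1% and 22.7% of all genes tested. For choroid plexus and ependymal markers 28.6% rose and 23.8% fell, and for neocortical markers 14.3% rose and 33.3% fell. The summed level of thalamic markers did not overlap between ages. Of 3 blood cell genes 2 fell (median -0.56), at 9.25 to 13.9 CPM in sum at P14 and 6.58 to 10.0 at P24; 1 fell without P24 wild-type replicate 3, P14 Scn1a+/- replicate 3 or P14 wild-type replicate 1 or 3. Of 6 sex-specific genes Ddx3y was called, at 0.18 ± 0.08 with overlapping ages, and the call was lost in most fits that left out a library. The part of dissection or pool makeup in the other results was not tested.

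**Figure D3:**
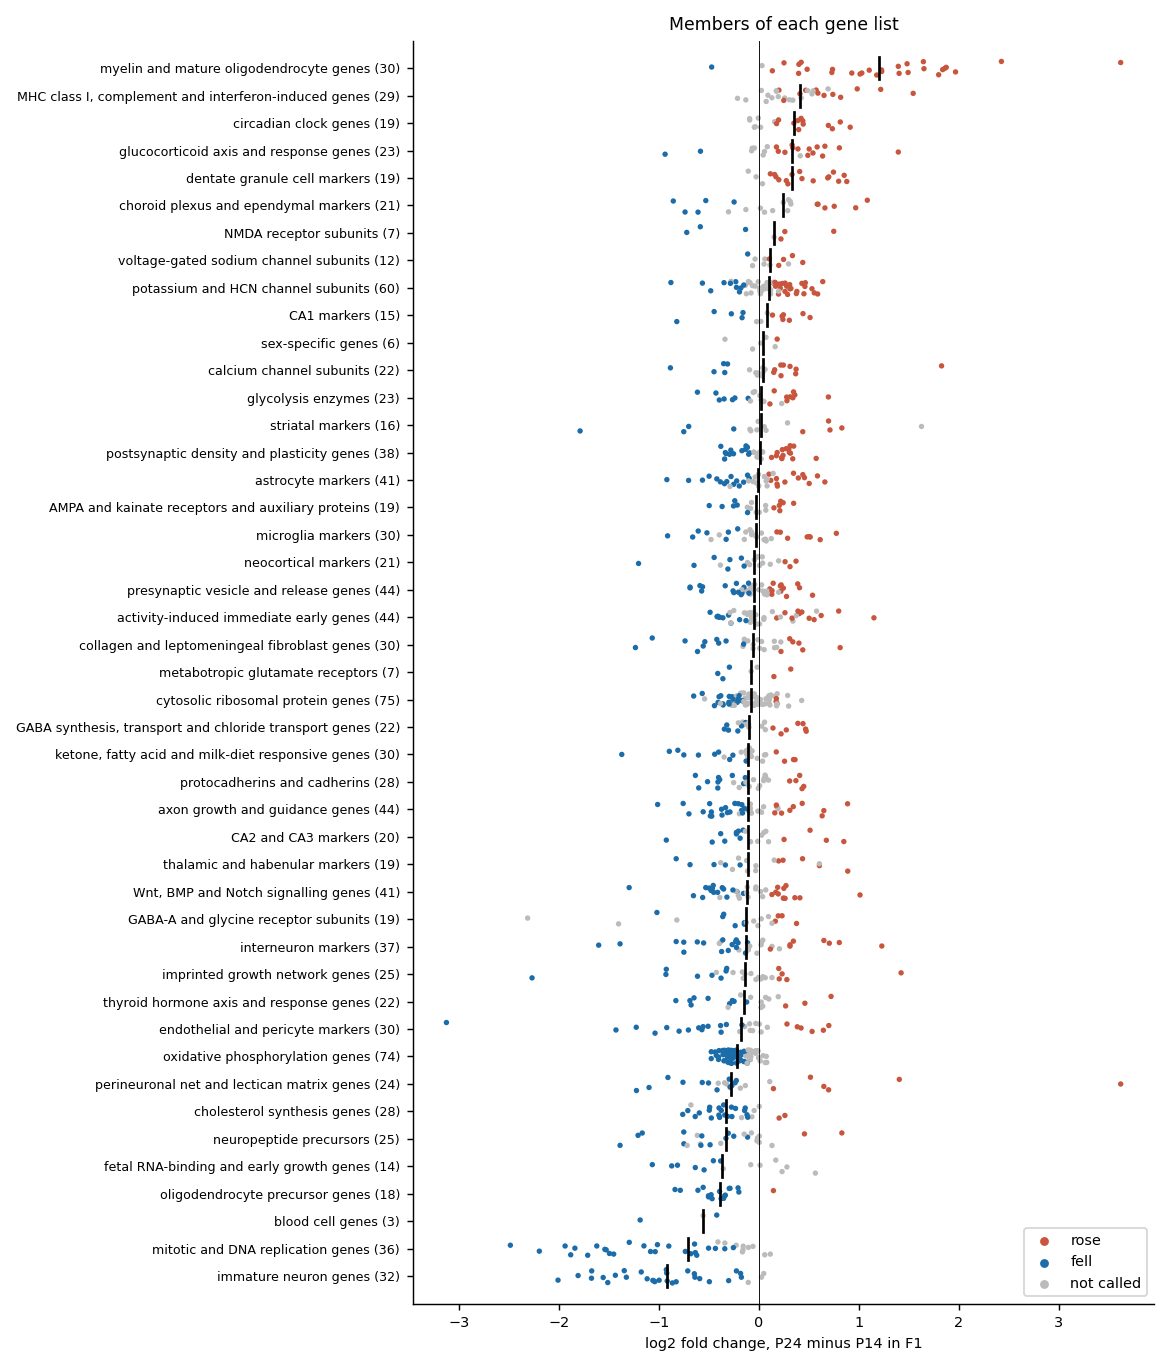
Log2 fold change (P24 minus P14 in F1) of every tested member of 45 gene lists, sorted by list median (black bar); the number of tested members follows each name, and red, blue and grey points rose, fell or were not called. Myelin genes lie highest (median 1.20) and immature neuron genes lowest (median -0.92).

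The age change was read in each genotype on its own. In wild type 5610 genes (35.8%) were called and in Scn1a+/- 4650 (29.6%), with 3335 called in the same direction in both (59.4% of the first and 71.7% of the second) and 10 in opposite directions. The libraries of the genotypes are separate, and the log2 fold changes had a Pearson correlation of 0.70 over 15690 genes, which are not independent replicates. Myelin genes had a median of 1.22 in wild type and 1.19 in Scn1a+/-, immature neuron genes -0.95 and -0.97, and cholesterol genes -0.33 and -0.33. Scn1a itself rose by 0.31 ± 0.06 in wild type and 0.19 ± 0.07 in Scn1a+/-, a difference of -0.12 ± 0.09 that was not called (edgeR adjusted p = 0.675).

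A direct test of the difference between genotypes called 5 genes (0.0319%), 4 higher and 1 lower in Scn1a+/-. Gfap, the astrocyte filament protein (chromosome 11, 102887336 to 102897200), stood at 749 and 868 CPM in P24 Scn1a+/- and 546, 627 and 594 in P24 wild type, against 587, 579 and 595 in P14 Scn1a+/- and 629, 611 and 650 in P14 wild type. Its change was 0.46 ± 0.08 in Scn1a+/- and -0.10 ± 0.07 in wild type, a difference of 0.56 ± 0.11 (edgeR adjusted p = 0.0209). The other called genes were Pfdn5, a chaperone subunit (difference 0.54 ± 0.10), Cox7a2, of respiratory complex IV (0.50 ± 0.09), Nol7, a nucleolar protein (0.50 ± 0.10), and Pfkl, a phosphofructokinase (-0.42 ± 0.09). Their number rests on single libraries: it was 664 without P24 Scn1a+/- replicate 1, 115 without P14 wild-type replicate 3, 53 without P24 wild-type replicate 3 and 0 without P24 or P14 wild-type replicate 1. It was 1 without P14 wild-type replicate 2 or any of the P14 Scn1a+/- replicates.

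In 129S6, where the age change was read in 11 other libraries, 6446 genes (41.1%) were called. The P24 129S6 libraries carry genotype labels that their Scn1a levels go against, and averaging both genotypes makes the age contrast the same whichever label is right. Of the genes called in F1, 4881 were called in the same direction in 129S6 (69.3% of the F1 calls and 75.7% of the 129S6 calls) and 11 in the opposite one. The sign was shared by 6730 of the 7040 F1 genes (95.6%), and the log2 fold changes of all genes had a Pearson correlation of 0.79. Hapln2 rose by 3.08 in 129S6 (3.62 in F1), Mal by 2.43 (2.43) and C4b by 1.41 (1.54), and Aplnr fell by 3.50 (3.13), Dpysl3 by 1.54 (1.67) and Slc16a1 by 1.10 (1.37). List medians in 129S6 were 1.14 for myelin genes, -0.93 for immature neuron genes, -0.83 for mitotic genes and -0.31 for cholesterol genes.

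**Figure D4:**
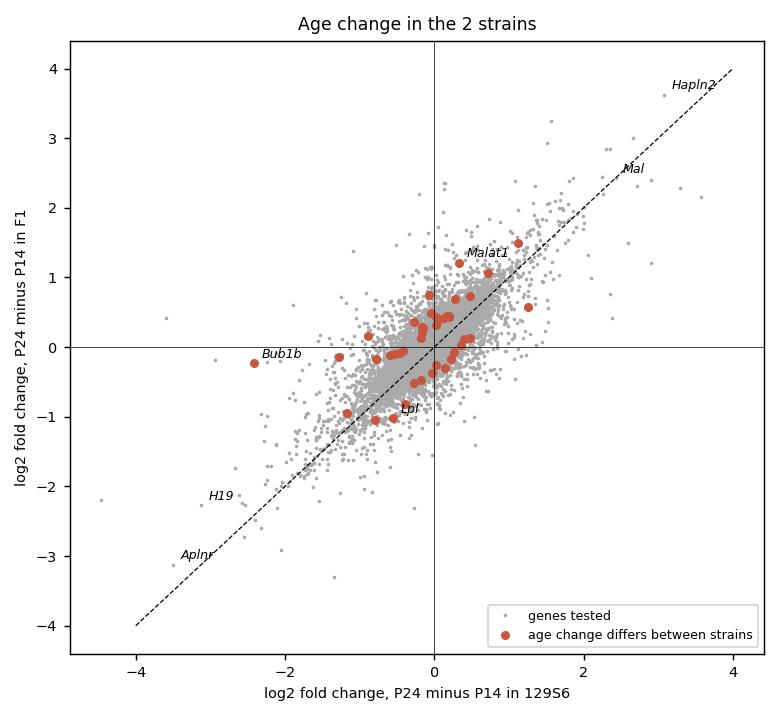
Log2 fold change between P14 and P24 in F1 (vertical axis) against that in 129S6 (horizontal axis) for 15690 genes (grey); red points are the 42 genes whose change differed between strains, and the dashed line marks equal change. Most genes lie along the line, and Bub1b lies far to its left.

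The difference between strains was called for 42 genes (0.268%), 28 higher and 14 lower in F1. Bub1b, the spindle checkpoint kinase (chromosome 2, 118598202 to 118641592), differed most. In F1 it stood at 2.51 and 3.13 CPM in P24 Scn1a+/- and 3.60, 3.51 and 3.69 in P24 wild type, against 3.09 to 4.09 (median 3.78) at P14, with overlapping ages. In 129S6 it stood at 0.362, 0.459 and 0.441 CPM in P24 libraries labelled Scn1a+/- and 0.272, 0.515 and 0.506 in those labelled wild type. The P14 129S6 libraries stood at 1.87, 2.30 and 1.96 in Scn1a+/- and 2.01 and 3.30 in wild type. It therefore fell in 129S6 (-2.41 ± 0.25) and was not called in F1 (-0.23 ± 0.17), a difference of 2.18 ± 0.31 (edgeR adjusted p = 4.56e-05). Pttg1, securin, another mitotic regulator, fell in 129S6 (-1.28 ± 0.24) and had -0.14 ± 0.12 in F1, where it stood at 8.26 to 11.9 CPM at both ages against 0.362 to 2.38 in 129S6.

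Malat1, a nuclear noncoding RNA (chromosome 19, 5795690 to 5802672), rose in both strains and more in F1. It stood at 1533 and 2856 CPM in P24 Scn1a+/- and 1947, 2465 and 2220 in P24 wild type, against 868 to 1186 (median 910) at P14, and rose by 1.21 ± 0.08 in F1 and 0.33 ± 0.08 in 129S6. The 2 P24 Scn1a+/- libraries, which differed most as a pair, were the lowest and the highest of the P24 values. Lpl, lipoprotein lipase, fell by 1.02 ± 0.06 in F1 and 0.55 ± 0.06 in 129S6, and Nov fell by 0.82 ± 0.06 and 0.39 ± 0.05 (edgeR adjusted p = 0.00548 and 0.00542 for the differences). Tmem72, a choroid plexus gene, rose in F1 (0.75 ± 0.15) and had -0.08 ± 0.13 in 129S6, and Stbd1, a glycogen-binding protein, rose less in F1 (0.58 ± 0.12) than in 129S6 (1.25 ± 0.10). With all 25 libraries in the fit, the strain difference of Bub1b kept its call. Those of Malat1, Lpl and Nov lost theirs (edgeR adjusted p = 0.257, 0.456 and 0.566). DESeq2 gave no adjusted p for the difference of Bub1b. Bub1b was called in all 22 fits that left out a library and Malat1 in all 22, Lpl and Nov in 21 each, Stbd1 in 7, Pttg1 in 6 and Tmem72 in 5. The number of genes called ran from 7 to 778 over these fits, and leaving out any library but P14 F1 Scn1a+/- replicate 2 moved it by over 1.5 times. It was 778 without P24 F1 Scn1a+/- replicate 1 and 148 without P24 F1 wild-type replicate 1.

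**Figure D5:**
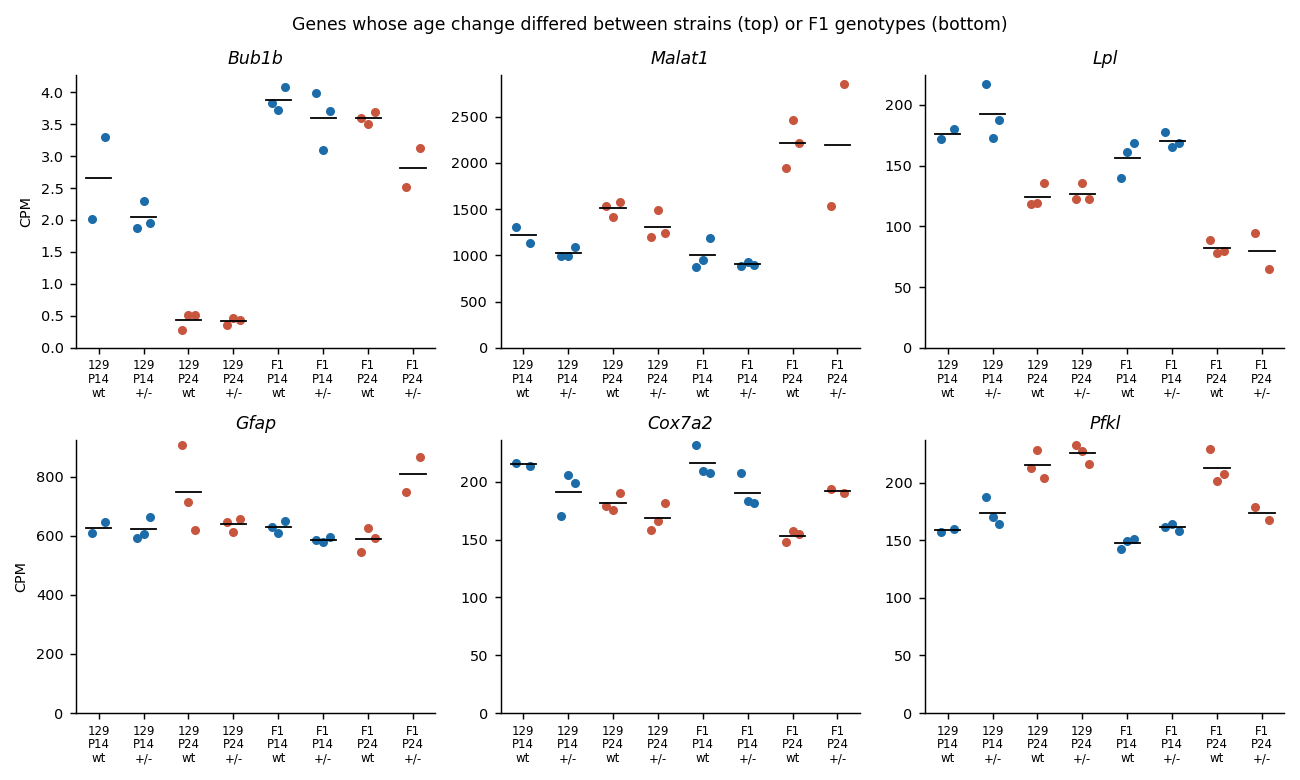
Levels in CPM (linear axis from 0) in the 8 groups without seizures (129, 129S6; wt, wild type; +/-, Scn1a+/-; P14 in blue, P24 in red; lines are group means) of 3 genes whose age change differed between strains (top) and 3 whose age change differed between F1 genotypes (bottom). Bub1b drops below 1 CPM at P24 in 129S6 and stays between 2.51 and 3.69 in F1; genotypes of P24 129S6 follow the labels, which their Scn1a levels go against.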

How the data were processed

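Hippocampal RNA of 25 pooled libraries was extracted with TRIzol and sequenced with TruSeq RNA Library Preparation Kit v2, a kit that does not mark strand, per the labels' protocols. The authors deposited raw counts per gene symbol (24421 genes, whole numbers, 1 file per library). Named in the submitters' processing notes are mm10 as build and the tools HTSeq 0.6.1p1, TopHat2 2.1.0 and CASAVA. Annotation and strand setting: not given in the sources used here. Reads of overlapping and antisense genes therefore cannot be told apart. A table of 25 normalized columns was not used.

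A quasi-likelihood model of 8 group means was fitted to the 22 libraries without seizures in edgeR 4.0.16 (with R 4.3.3 and limma 3.58.1). TMM factors were used, and filterByExpr with a minimum count of 10 kept 15690 genes. Variation between pooled libraries, which edgeR terms biological, was 5.44% (common coefficient), on 33 prior and 14 residual degrees of freedom. It does not measure the spread between single mice. The F1 age contrast is the mean of the 2 P24 groups minus the mean of the 2 P14 groups. Differences between genotypes and strains were tested as interaction contrasts. Calls needed an adjusted p (Benjamini-Hochberg, over all genes tested) under 0.05. Standard errors are approximate (size of the fold change over the root of the F statistic). CPM values, computed here, are counts scaled to the effective library size.

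Genes were named by a rule: the 15 largest rises and falls among called genes that averaged a log2 CPM of 1 or more and did not overlap between ages, up to 4 called members of each of 45 lists by adjusted p, and the 5 largest interactions per direction. Other list members were picked with their values in view. Some genes that the rule names are not reported here. The comparison, lists and rule were chosen with earlier results of these data known. Coordinates and promoters come from RefSeq (GRCm38.p6). Of the symbols, 23204 matched, 1109 matched an older name and 108 none. Alternatives were other scalings, no filter, DESeq2 1.42.0, all 25 libraries, only the 11 F1 libraries, an additive age and genotype model, and leaving out each library.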

Additional observations from a re-analysis of the deposited data

Results flagged for a closer look

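The genes below were picked out because their age change differed between strains or between F1 genotypes by a test of the difference itself. Between strains (F1 minus 129S6, log2), the differences were 2.18 for Bub1b, 1.13 for Pttg1, 0.88 for Malat1, 0.83 for Tmem72 and 0.63 for Mgp, a matrix protein of vessels. On the lower side they were -0.67 for Stbd1, -0.47 for Lpl, -0.44 for Rerg, a small GTPase, -0.43 for Nov and -0.40 for Wfs1, an endoplasmic reticulum protein of CA1 neurons. With all 25 libraries in the fit, only Bub1b among these genes kept its call. Of the 22 fits that left out a library, these strain differences were called in 22 for Bub1b and Malat1, 21 for Lpl and Nov, 7 for Stbd1, 6 for Pttg1, 5 for Tmem72, Mgp and Rerg, and 4 for Wfs1. Wfs1 had -0.17 ± 0.06 in F1 and 0.23 ± 0.06 in 129S6, and its F1 call was lost without P24 F1 Scn1a+/- replicate 2 or P24 F1 wild-type replicate 3, among others. Between F1 genotypes (Scn1a+/- minus wild type), they were 0.56 for Gfap, 0.54 for Pfdn5, 0.50 for Cox7a2, 0.50 for Nol7 and -0.42 for Pfkl. Of the 11 fits that left out an F1 library, these genotype differences were called in 4 for Gfap, 7 for Pfdn5, 7 for Cox7a2, 3 for Nol7 and 4 for Pfkl.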

How the results depend on the processing

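The F1 age comparison kept its size under every alternative run. Genes called were 7040, and 6107 to 7039 under other scalings, filters, tools and library sets; leaving out 1 library gave 6180 to 6888, with 3001 to 3417 rises and 3179 to 3476 falls. Changes of at least 2-fold numbered 474, and 458 to 507 without 1 library. Wild type gave 4727 to 4959 without 1 library, Scn1a+/- 3155 to 4328 and 129S6 5564 to 6287. Of 3672 values of 204 named genes under these alternatives, 3639 stayed on their side of the threshold. The call was lost in 30 values of 6 genes (Ddx3y, Wfs1, Gfap, Pfdn5, Slc4a1 and Grm8) and gained in 3 for Nol7. Where the main or the alternative value was called, 0 changed sign. Sign changes of values called in neither were not counted. The genes called for age by genotype, 5 in all, became 234 with no filter, 0 with all 25 libraries, 2 with only the 11 F1 libraries and 145 with DESeq2; leaving out 1 library gave 0 to 664. Those for age by strain, 42, became 222 with no filter, 1 with all 25 libraries and 165 with DESeq2; leaving out 1 library gave 7 to 778. The cause was not tested. Where an arm was left with 1 library, it was assumed to vary like the other groups. Of 90 list counts, 21 moved by over 1.5 times under at least 1 alternative; those not named with the results (such as 1 rise in place of 2 among cholesterol genes without P24 F1 or P14 F1 Scn1a+/- replicate 1) shifted by 1 gene. P14 depth, 7436442 counts at the least, limits the low genes. No paired analysis was possible because library numbers in the titles run through all groups and none is shared.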
